A study of Mus musculus with 12 samples.

Results

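Immunoglobulin genes encode the heavy and light chains of antibodies. The 111 genes described here are those of the 22607 genes in the table whose symbol names a heavy (Ighv), kappa (Igkv) or lambda (Iglv) variable gene, a constant-region gene (Ighg, Iglc, Igkc, Igha, Ighm, Ighd, Ighe) or Jchain, and whose counts over the 12 libraries summed to 10 or more. The symbol rule matched 145 genes, of which 34 had fewer than 10 counts. The members are 8 heavy constant genes, Igkc, 3 lambda constant genes, Jchain, 40 of 61 heavy variable genes, 55 of 68 kappa variable genes and all 3 lambda variable genes in the table. Just inside the count threshold were Ighv1-9 and Igkv4-58 with 10 counts each, and Ighv14-3, Ighv3-4 and Igkv4-80 with 12 each, while Ighv1-15 and Ighv5-15 had 9 counts, and Ighv1-50, Ighv14-2 and Ighv5-17 had 8, just outside it.

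An antibody is built of paired heavy and light chains. In developing B cells 1 variable gene of each chain is joined to short joining segments, and the variable part binds antigen, while the constant region sets the class: IgM (Ighm) and IgD (Ighd) on naive B cells, and IgG (Ighg), IgA (Igha) or IgE (Ighe) after class switching. Plasma cells, the antibody-secreting descendants of B cells, make very large amounts of these transcripts, and Jchain links IgM and IgA into polymers. Muscle fibres are not known as a source of them, and whole-muscle RNA also holds RNA of the blood and immune cells in the tissue.

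The RNA came from the tibialis anterior, a shin muscle, of C57BL/6 male mice aged 13 weeks, in 4 groups of 3 libraries. ADF Crtc2 muscle received a Crtc2 expression vector in mice fasted on alternate days (ADF) for 3 rounds. ADF GFP muscle carried the GFP vector under the same diet, fed Crtc2 muscle the Crtc2 vector with free access to food, and fed GFP muscle the GFP vector with free access to food. Crtc2 is a coactivator that works with CREB. The labels name no promoter for the vectors. Nor do they say whether the 3 libraries of a group are from different mice, or whether GFP and Crtc2 muscles come from the same mice, so that the vector comparisons may be between legs or between animals, and p-values then measure only their spread, which could be technical.

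Library totals ran between 24232450 and 34610417 counts. All 12 muscle markers checked were detected in every group, and their summed level was 142400 to 239900 CPM (counts scaled to a common library size after TMM, trimmed mean of M values, normalization) over the 12 libraries. Crtc2, the transduced gene, averaged 38.3 ± 6.06 CPM in ADF Crtc2 muscle and 19.8 ± 3.75 CPM in ADF GFP muscle, and 67.0 ± 10.02 CPM in fed Crtc2 muscle and 23.5 ± 5.97 CPM in fed GFP muscle (SD, n = 3 each). The Crtc2 groups lay above the GFP groups without overlap under both diets, and the difference over both diets had an edgeR adjusted p of 0.00578, while within each diet it did not pass (0.127 under ADF and 0.134 in fed muscle).

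Antibody transcripts were far scarcer in muscle with the Crtc2 vector than in muscle with the GFP vector under both diets. The 111 genes together took 0.00620, 0.00628 and 0.00395% of all counts in the 3 ADF Crtc2 libraries, against 0.0715, 0.0439 and 1.04% in ADF GFP libraries. They took 0.00313, 0.00392 and 0.0160% in fed Crtc2 libraries, against 0.228, 0.331 and 0.583% in fed GFP libraries. Every Crtc2 library was thus below every GFP library, and ADF GFP replicate 3 was the highest of the 12. In whole tissue, fewer cells of a type and less RNA per cell cannot be told apart.

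The summed level of the 12 constant-region genes was 57.4 ± 16.2 CPM in ADF Crtc2 muscle and 2969 ± 4262 CPM in ADF GFP muscle, a log2 ratio of -5.69, and 73.5 ± 75.1 CPM in fed Crtc2 muscle and 3187 ± 1275 CPM in fed GFP muscle, a log2 ratio of -5.44 (SD, n = 3 each). The 98 variable genes summed to 3.90 ± 3.51 CPM in ADF Crtc2 muscle and 577 ± 854 CPM in ADF GFP muscle, and to 0.692 ± 0.914 CPM in fed Crtc2 muscle and 187 ± 116 CPM in fed GFP muscle, log2 ratios of -7.21 and -8.08. Single libraries moved these ratios: without ADF GFP replicate 3 the ADF ratios were -3.15 for the constant and -4.43 for the variable genes, and without ADF Crtc2 replicate 1 the variable ratio was -7.95. Without fed Crtc2 replicate 3 the fed ratios were -6.72 for the constant and -10.12 for the variable genes. These sums were not tested.

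**Figure D1:**
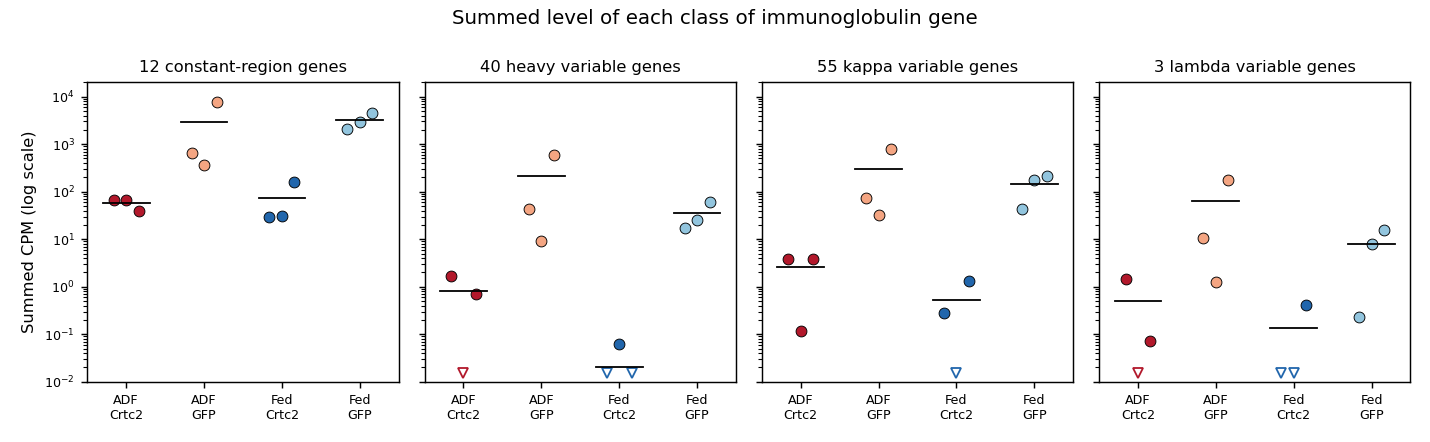
Summed CPM on a log axis of the 12 constant-region, 40 heavy variable, 55 kappa variable and 3 lambda variable genes in each library (dots) with the group mean (bars), and open triangles for libraries at 0 counts. In the constant panel the Crtc2 libraries reach 160 CPM at most and the GFP libraries start at 360 CPM.

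The heavy chain members lie on chromosome 12, the kappa members on chromosome 6, the lambda members on chromosome 16 and Jchain on chromosome 5. Among light chains, Igkc, the kappa constant region (chromosome 6, 70726435 to 70726966, GRCm38), had the largest counts of all members. Its level was 15.98, 8.73 and 4.37 CPM in ADF Crtc2 libraries, against 258, 146 and 2917 CPM in ADF GFP libraries. In fed Crtc2 libraries it was 5.51, 5.22 and 16.4 CPM, against 1014, 1558 and 2018 CPM in fed GFP libraries. The 6 Crtc2 libraries reached 16.4 CPM at most and the 6 GFP libraries began at 146 CPM, with a 114-fold lower mean under ADF and a 169-fold lower mean in fed muscle. The ADF fold was 20.9 without ADF GFP replicate 3, and the fed fold was 285 without fed Crtc2 replicate 3. Iglc1, a lambda constant region, was at 0.475, 1.86 and 0.462 CPM in ADF Crtc2 libraries, against 9.30, 4.27 and 256 CPM in ADF GFP libraries. It had 0 counts in all 3 fed Crtc2 libraries, against 15.8, 3.98 and 14.7 CPM in fed GFP libraries, at least 107-fold lower against a floor of 3 counts per library. Iglc2 and Iglc3, which share 10.5 and 10.7% of their 50-base stretches with other immunoglobulin genes, mainly each other, overlapped between the vectors under ADF.

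The IgG heavy chains followed the same order. Ighg2c, the IgG2c constant region of the C57BL/6 strain (chromosome 12, 113285325 to 113288932), was at 8.51, 2.41 and 2.84 CPM in ADF Crtc2 libraries, against 221, 57.2 and 3672 CPM in ADF GFP libraries. It was at 5.08, 5.63 and 7.07 CPM in fed Crtc2 libraries, against 653, 698 and 1029 CPM in fed GFP libraries, so that the groups were far apart under both diets. Ighg1, the IgG1 constant region, had 5, 0 and 0 counts in ADF Crtc2 libraries, against 291, 768 and 9527 counts in ADF GFP libraries. It had 6, 1 and 5 counts in fed Crtc2 libraries, against 2093, 8060 and 24300 counts in fed GFP libraries, a 2608-fold lower mean CPM that was 1187-fold without fed GFP replicate 3. In all 6 Crtc2 libraries it was nearly absent. Ighg3, the IgG3 constant region, had no count in any of the 6 Crtc2 libraries, and averaged 6.31 ± 9.97 CPM in ADF GFP muscle and 68.8 ± 72.1 CPM in fed GFP muscle (SD, n = 3 each), at least 53.3-fold and 642-fold above the floor of 3 counts in the Crtc2 muscle of the same diet. Without ADF GFP replicate 3 the ADF bound was 4.71-fold, with 3 counts in replicate 1 at the floor itself, and without fed GFP replicate 3 the fed bound was 253-fold. Ighg2b, the IgG2b constant region, averaged 1.04 ± 0.930 CPM in ADF Crtc2 muscle and 215 ± 283 CPM in ADF GFP muscle, and 1.67 ± 2.07 CPM in fed Crtc2 muscle and 210 ± 118 CPM in fed GFP muscle (SD, n = 3 each). In both genes every Crtc2 library lay below every GFP library.

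IgM differed least between the vectors among the abundant constant genes. Ighm was at 39.9, 53.7 and 28.6 CPM in ADF Crtc2 libraries, against 104, 46.9 and 170 CPM in ADF GFP libraries. It was at 12.4, 18.9 and 132 CPM in fed Crtc2 libraries, against 162, 147 and 162 CPM in fed GFP libraries. The groups overlapped under ADF, and in fed muscle only Crtc2 replicate 3 came near the GFP libraries. The edgeR log2 fold change of Ighm was -1.39 ± 0.85 under ADF (SE, adjusted p = 0.606) and -1.53 ± 0.85 in fed muscle (adjusted p = 0.921). Without fed Crtc2 replicate 3 it was -3.32 in fed muscle, with an adjusted p of 0.0483.

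Per kilobase of exon, which allows levels to be compared between genes, the 4 IgG genes together stood at 0.308, 0.0794 and 0.188 of the IgM level in ADF Crtc2 libraries, against 3.31, 3.20 and 34.3 times the IgM level in ADF GFP libraries. The ratio was 0.821, 0.424 and 0.0825 in fed Crtc2 libraries, against 6.64, 9.21 and 14.9 in fed GFP libraries. IgM thus exceeded IgG in all 6 Crtc2 libraries, and IgG exceeded IgM in all 6 GFP libraries.

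Igha, the IgA constant region, had 6, 0 and 0 counts in ADF Crtc2 libraries, against 525, 262 and 607 counts in ADF GFP libraries. It had 52, 12 and 45 counts in fed Crtc2 libraries, against 10, 614 and 404 counts in fed GFP libraries, where replicate 1 stood below the other 2 and the groups overlapped. Jchain was at 1.38, 2.84 and 0.889 CPM in ADF Crtc2 libraries, against 18.3, 11.7 and 361 CPM in ADF GFP libraries. In fed muscle it was at 0.704, 2.04 and 0.962 CPM in Crtc2 libraries, against 54.0, 80.2 and 191 CPM in GFP libraries, without overlap under either diet. The last 2 heavy classes were rare. Ighd, the IgD constant region, stayed at or under 2.73 CPM in every library, and Ighe, the IgE constant region, had 20 counts, all in ADF GFP replicate 3.

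**Figure D2:**
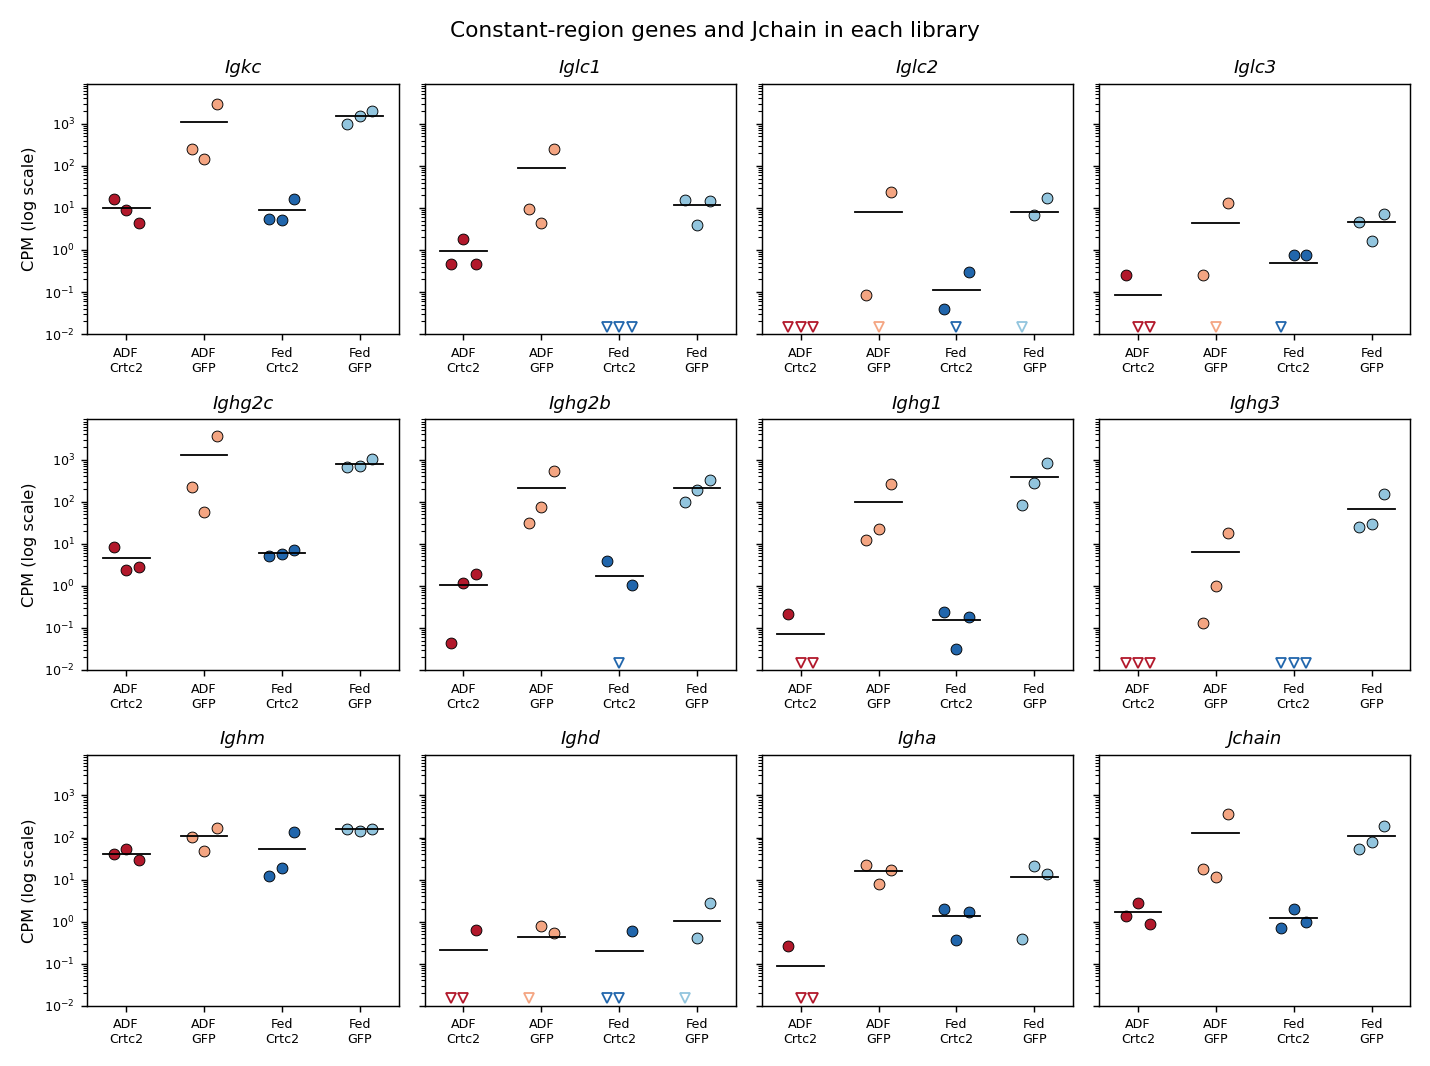
CPM on a log axis of 11 constant-region genes and Jchain in each library (dots) with the group mean (bars), and open triangles for libraries at 0 counts. Igkc, the 4 IgG genes, Iglc1 and Jchain are lower in all 6 Crtc2 libraries than in all 6 GFP libraries, while in Ighm and Ighd the ADF groups overlap.

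Few of these differences passed the test within one diet. Under ADF, 4 of the 39 members that entered the edgeR quasi-likelihood fit were lower in Crtc2 than in GFP muscle at an adjusted p under 0.05 and 0 were higher, beside 0.65% of all 16007 genes tested that were lower and 0.075% that were higher. They were the kappa variable genes Igkv3-2 (adjusted p = 0.0130) and Igkv8-21 (0.0179), Igha (0.0219) and the heavy variable gene Ighv8-12 (0.0258). Members with no count in any Crtc2 library, such as Ighg3 and Ighv8-12, entered the fit through GFP libraries alone. In every Crtc2 against GFP comparison, the share of members called is therefore not a like comparison with all genes. DESeq2 called 20 of 32 members lower under ADF, beside 2.79% of all genes. Members to which it gave no adjusted p, Ighg3 and Iglc1 among them, are not in the 32. Igha fell by 7.49 ± 1.48 on the log2 scale, to a mean of 0.0864 ± 0.150 CPM in ADF Crtc2 muscle, against 15.6 ± 7.37 CPM in ADF GFP muscle (SE of the fold change, SD of the means, n = 3 each). Igkc (-6.84 ± 1.39, adjusted p = 0.0840), Ighg2c (-8.17 ± 1.68, 0.0863), Ighg1 (-10.45 ± 2.07, 0.0797) and Jchain (-6.26 ± 1.53, 0.152) did not pass.

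Each of the 4 calls under ADF depended on single libraries. Igkv3-2 had an adjusted p of 0.0804 without ADF Crtc2 replicate 1, 0.0502 without ADF Crtc2 replicate 3 and 0.178 without ADF GFP replicate 3. For Igkv8-21 it was 0.170, 0.133 and 0.219 without ADF Crtc2 replicates 1, 2 and 3, 0.0559 without ADF GFP replicate 3 and 0.0597 without fed GFP replicate 3. For Igha it was 0.0964 and 0.102 without ADF Crtc2 replicates 2 and 3, and 0.0513 and 0.0716 without ADF GFP replicates 1 and 3. For Ighv8-12 it was 0.155, 0.0996 and 0.111 without ADF Crtc2 replicates 1, 2 and 3, 0.223 without ADF GFP replicate 3, and 0.0818, 0.0712 and 0.0870 without fed GFP replicates 1, 2 and 3.

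In fed muscle edgeR called 0 of the 39 members in Crtc2 against GFP, beside 0% of all 16007 genes, with 27 members and 871 genes at an unadjusted p under 0.05. DESeq2 called 13 of 32 members lower, Igkc, Ighg1, Ighg2c, Ighg2b and Jchain among them, beside 0.188% of all genes lower. The spread is estimated over all 12 libraries, and without ADF GFP replicate 3, which is no part of this comparison, edgeR called 9 members in fed muscle, Igkc (0.0361), Ighg2c (0.0361), Ighg1 (0.0490) and Jchain (3.00e-04) among them. Over the fits that each left out 1 library, 0 to 18 of all genes were called in this comparison. The log2 fold changes were -7.41 ± 1.42 for Igkc, -7.06 ± 1.597 for Ighg2c, -11.38 ± 1.99 for Ighg1 and -6.43 ± 1.55 for Jchain.

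**Figure D3:**
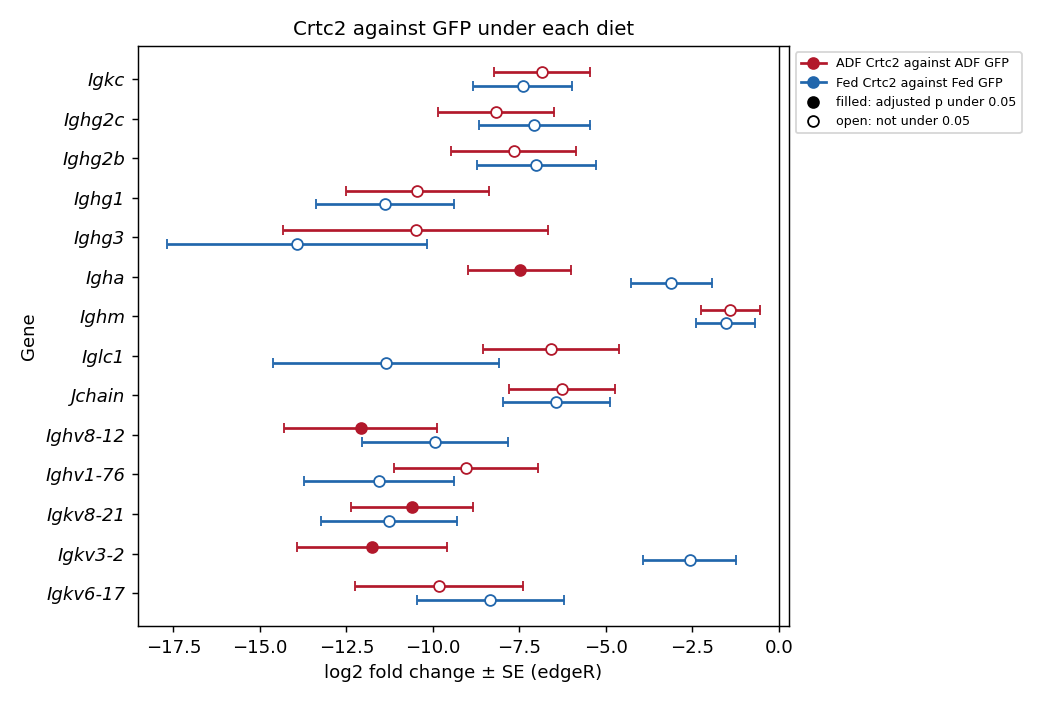
Log2 fold changes ± SE from edgeR of 14 named genes in ADF Crtc2 against ADF GFP (red) and fed Crtc2 against fed GFP (blue), filled where the adjusted p is under 0.05. All 28 values lie below 0, only 4 are filled, and Ighm lies nearest to 0; values of genes at 0 counts in the Crtc2 group depend on the prior count.

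Averaged over both diets, a contrast added after the data were seen, Crtc2 muscle was lower than GFP muscle for 9 of the 39 members and higher for 0, beside 0.469% of all genes lower and 0.025% higher. The edgeR calls were Ighv1-76, Igkv8-21, Ighv8-12, Igkv6-17, Igkv3-2, Igha, Ighg1, Igkc and Ighg2c, with edgeR adjusted p-values from 0.00578 to 0.0338. DESeq2 called 25 of 33 members lower, beside 1.88% of all genes. Igkc fell by 7.12 ± 0.99 on the log2 scale (adjusted p = 0.0240), Ighg2c by 7.62 ± 1.16 (0.0338) and Ighg1 by 10.91 ± 1.43 (0.0190), while Ighg2b (0.0553) and Jchain (0.0567) did not pass. The Igkc call was lost, with adjusted p-values of 0.0532 to 0.111, without any 1 of the 6 Crtc2 libraries or of fed GFP replicates 1 and 3. Ighg2c was lost without any 1 of the same 8 libraries (0.0775 to 0.155) and Ighg1 without any 1 of the 6 Crtc2 libraries (0.0594 to 0.135). Igha was lost without fed Crtc2 replicate 1 (0.0533), Ighv8-12 without fed GFP replicate 1 (0.0530), Igkv8-21 without ADF Crtc2 replicate 3 (0.0746), and Igkv3-2 (0.142) and Igkv6-17 (0.0533) without ADF GFP replicate 3. Ighv1-76 passed in all 12 of these fits. Ighv1-76 and Ighv8-12 had no count in any Crtc2 library and entered the fits through GFP libraries alone.

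By position of the libraries alone, 28 of the 111 members had all 3 ADF Crtc2 libraries below all 3 ADF GFP libraries, beside 9.59% of the 20255 genes with 10 or more counts, and 24 had all fed Crtc2 libraries below all fed GFP libraries, beside 3.2%. None lay the other way in either comparison, where 7.72% of genes did under ADF and 3.98% in fed muscle. In 15 members all 6 Crtc2 libraries were below all 6 GFP libraries, beside 0.267% of genes, and none lay the other way, as 0.079% of genes did. The 15 were Igkc, Iglc1, Ighg1, Ighg2b, Ighg2c, Ighg3, Jchain, Ighv1-76, Ighv1-81, Ighv8-12, Igkv10-94, Igkv3-2, Igkv6-15, Igkv6-17 and Igkv8-21. Members with no count in any Crtc2 library met the count minimum through GFP libraries alone.

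Variable genes were read almost only in GFP muscle. The 6 Crtc2 libraries held 350 variable-gene counts in all and the 6 GFP libraries 78253, against 10406 and 592201 constant-region counts. Of the 98 variable genes, 78 had no count in any Crtc2 library and 2 had none in any GFP library. The 78 met the minimum of 10 counts through GFP libraries alone, and the 2 through Crtc2 libraries alone. Of all 111 members, 86 had 0 counts in ADF Crtc2 muscle and 93 in fed Crtc2 muscle, beside 3529 and 1838 of 20255 genes. In ADF GFP and fed GFP muscle 14 and 34 members had 0 counts, beside 2185 and 2731 genes. Counts of 10 or more in a Crtc2 library were reached by 6 variable genes: Iglv1 in 2 libraries, and Igkv5-39, Igkv3-2, Igkv4-55, Ighv2-9 and Ighv1-18 in 1 library each. There were 10.7, 0.175 and 11.7 variable counts per 100 constant counts in ADF Crtc2 libraries, against 19.2, 11.7 and 19.8 in ADF GFP libraries, and 0.933, 0.200 and 1.09 in fed Crtc2 libraries, against 2.95, 7.27 and 6.30 in fed GFP libraries.

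The germline coding sequences of the 3 variable genes that passed under ADF are printed from the reference and are not reads of these libraries. The last 240 coding bases of each GENCODE M21 transcript on GRCm38 are given 5′ to 3′, and the capitals mark the codons for tyrosine, tyrosine or phenylalanine, and cysteine that close the germline framework just before the third hypervariable loop. Ighv8-12 lies on chromosome 12 (115647945 to 115648387, minus strand), and Igkv8-21 (70314895 to 70315472, minus strand) and Igkv3-2 (70698449 to 70699067, plus strand) lie on chromosome 6.
Ighv8-12: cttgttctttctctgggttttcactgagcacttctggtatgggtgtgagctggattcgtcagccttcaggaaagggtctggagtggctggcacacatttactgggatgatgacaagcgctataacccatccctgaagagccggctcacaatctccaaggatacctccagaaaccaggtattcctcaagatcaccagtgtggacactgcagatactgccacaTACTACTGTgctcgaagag
Igkv8-21: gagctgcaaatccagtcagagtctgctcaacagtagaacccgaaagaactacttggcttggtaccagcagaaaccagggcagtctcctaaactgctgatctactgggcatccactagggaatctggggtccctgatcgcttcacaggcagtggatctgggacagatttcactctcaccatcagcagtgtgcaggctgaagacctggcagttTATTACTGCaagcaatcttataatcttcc
Igkv3-2: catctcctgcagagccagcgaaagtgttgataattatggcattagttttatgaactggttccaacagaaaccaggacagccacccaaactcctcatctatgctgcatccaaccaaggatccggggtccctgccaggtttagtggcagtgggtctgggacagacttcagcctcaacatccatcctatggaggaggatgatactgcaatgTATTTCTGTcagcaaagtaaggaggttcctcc

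Ighv8-12 had no count in any Crtc2 library, against 228, 8 and 1758 counts in ADF GFP libraries and 174, 122 and 57 counts in fed GFP libraries. Igkv8-21 had 1 count in the 6 Crtc2 libraries, in ADF replicate 3, against 273, 78 and 2462 counts in ADF GFP libraries and 39, 555 and 364 in fed GFP libraries. Igkv3-2 had no count in ADF Crtc2 libraries, against 317, 106 and 1073 in ADF GFP libraries. It had 1, 0 and 24 counts in fed Crtc2 libraries, against 39, 35 and 84 in fed GFP libraries, so that the groups stood closest in fed muscle. Relative to the floor of 3 counts per library, Ighv8-12 was at least 163-fold lower and Igkv3-2 at least 129-fold lower in ADF Crtc2 than in ADF GFP muscle, bounds that were 42.3-fold and 70.8-fold without ADF GFP replicate 3, while no fold is given for Igkv8-21 under ADF, with its 1 count. The interaction of diet and vector for Igkv3-2 did not pass (adjusted p = 0.516).

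Different variable genes led in different GFP libraries. Among heavy variable counts, Ighv8-12 led in ADF GFP replicate 1 with 22.5% (95% Wilson interval 20.04 to 25.2%), Ighv1-81 in ADF GFP replicate 2 with 43.9% (38.5 to 49.5%) and Ighv1-80 in ADF GFP replicate 3 with 38.8% (38.1 to 39.4%). Ighv8-12 led in fed GFP replicate 1 with 39.1% (34.7 to 43.7%) and Ighv1-76 in fed GFP replicates 2 and 3 with 43.3% (39.8 to 46.8%) and 44.6% (42.4 to 46.9%). The intervals cover counting error only, with each count taken as independent. Most low counts were even numbers, so the intervals may be too narrow. Ighv1-80 is the extreme case: it had 8281 counts in ADF GFP replicate 3 and 112 in ADF GFP replicate 1, but 0 in ADF GFP replicate 2, and 1, 0 and 0 in fed GFP libraries.

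Kappa variable genes changed place in the same way. Igkv3-2 led in ADF GFP replicate 1 with 18.6% of kappa variable counts, Igkv8-30 in ADF GFP replicate 2 with 37.7%, Igkv10-94 in ADF GFP replicate 3 with 36.5%, Igkv9-124 in fed GFP replicate 1 with 27.0%, and Igkv6-15 in fed GFP replicates 2 and 3 with 20.4 and 29.9%. Igkv10-94, with 12299 counts the largest of all variable genes, had 10835 of them in ADF GFP replicate 3. Igkv8-30 had 1, 400 and 1380 counts in ADF GFP libraries, against 0, 16 and 0 in fed GFP libraries. Iglv1 held most lambda variable counts, with 244, 42 and 6276 in ADF GFP libraries, against 6, 190 and 471 in fed GFP libraries. Its share was lowest in fed GFP replicate 2, at 81.9% of 232 counts.

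**Figure D4:**
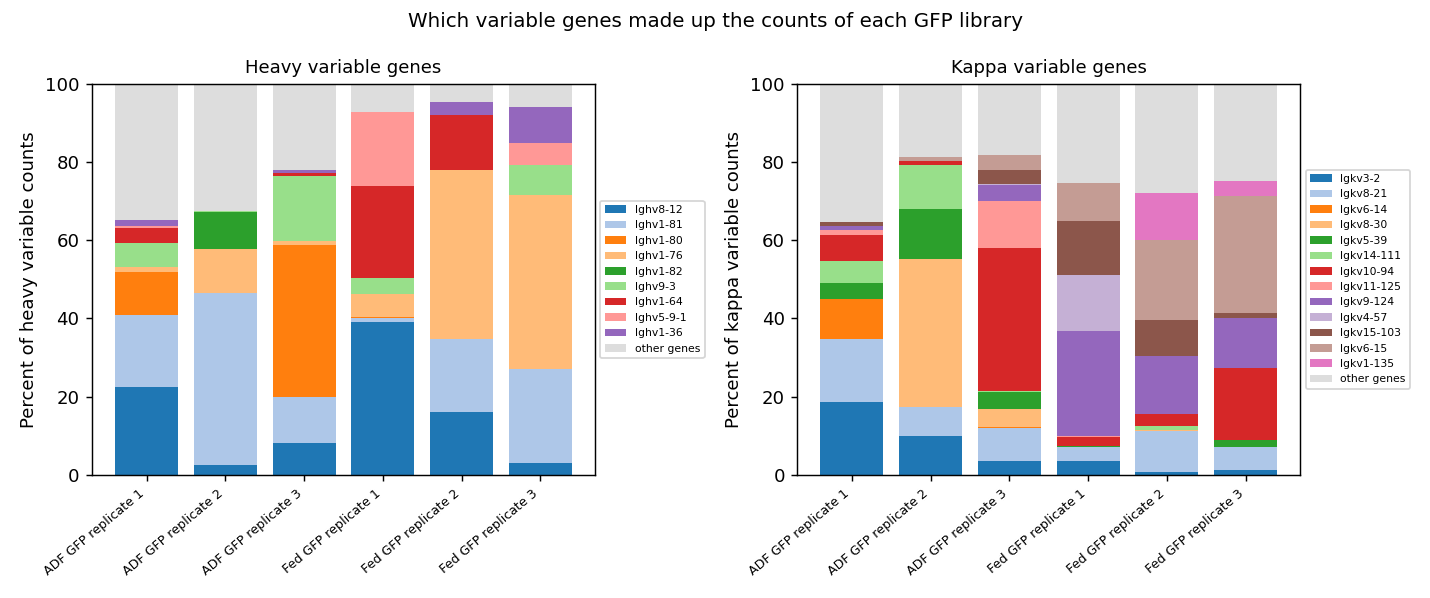
Percent of heavy (left) and kappa (right) variable counts taken by each gene that was among the 3 leading genes of at least 1 GFP library, with all others in grey. The leading heavy gene differs between the 3 ADF GFP libraries, and Ighv1-76 takes over 43% in 2 fed GFP libraries and 11.2% or less in the other 4.

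Adjacent genes could be far apart. Ighv1-80 and Ighv1-81 are neighbours in number on chromosome 12, have coding sequences of 351 bases each and differ at 38 of them (89.2% identity), yet fed GFP replicate 3 had 0 counts of Ighv1-80 and 439 of Ighv1-81, and ADF GFP replicate 3 had 8281 and 2514. The last 240 bases of their GENCODE M21 coding sequences on GRCm38 hold 29 of the differences and are given 5′ to 3′ with the differing bases in capitals.
Ighv1-80: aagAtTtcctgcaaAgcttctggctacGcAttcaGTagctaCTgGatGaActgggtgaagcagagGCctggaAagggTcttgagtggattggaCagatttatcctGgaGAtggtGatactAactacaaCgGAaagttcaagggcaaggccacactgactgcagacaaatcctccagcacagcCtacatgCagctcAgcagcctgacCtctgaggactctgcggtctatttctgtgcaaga
Ighv1-81: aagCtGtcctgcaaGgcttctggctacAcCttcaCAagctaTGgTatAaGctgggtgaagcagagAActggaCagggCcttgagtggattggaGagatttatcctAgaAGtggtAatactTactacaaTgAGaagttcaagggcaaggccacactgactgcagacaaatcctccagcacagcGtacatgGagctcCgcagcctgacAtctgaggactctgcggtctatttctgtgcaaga

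Near-identical copies limit how far counts can be assigned to single variable genes. Of the 50-base stretches in a heavy variable gene, a median of 20.9% also occur in another immunoglobulin gene, and of those in a kappa variable gene 26.4%. The share is 18.5% for Ighv8-12 and for Ighv1-80, 26.4% for Igkv8-21 and 46.6% for Igkv10-94, and it exceeds 50% in 4 heavy and 9 kappa variable genes. Igkc, Igha and Ighm share none, and Ighg2c shares 5.49%, mostly with Ighg2b. How reads matching several genes were treated is not given in the sources used here.

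Most variable genes were seen in few libraries. Of the 98, 43 reached 10 counts in 1 GFP library only, 25 in 2, and 4 in all 6, and 49 had over 90% of their counts in 1 library. ADF GFP replicate 3 was the top library of 57 variable genes. It had 67 variable genes with 10 or more counts, while the other GFP libraries had 19 to 34. ADF GFP replicate 3 also held 57533 variable counts, against 1407 to 8541 in the other GFP libraries. A fixed minimum of 10 counts is not adjusted for this, so these numbers do not compare how many variable genes were in use. Fed GFP replicate 1 shared 18 of its 19 such genes with ADF GFP replicate 3 (94.7% of the first and 26.9% of the second), and ADF GFP replicate 2 shared 5 of its 26 with fed GFP replicate 1 (19.2% of the first and 26.3% of the second).

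**Figure D5:**
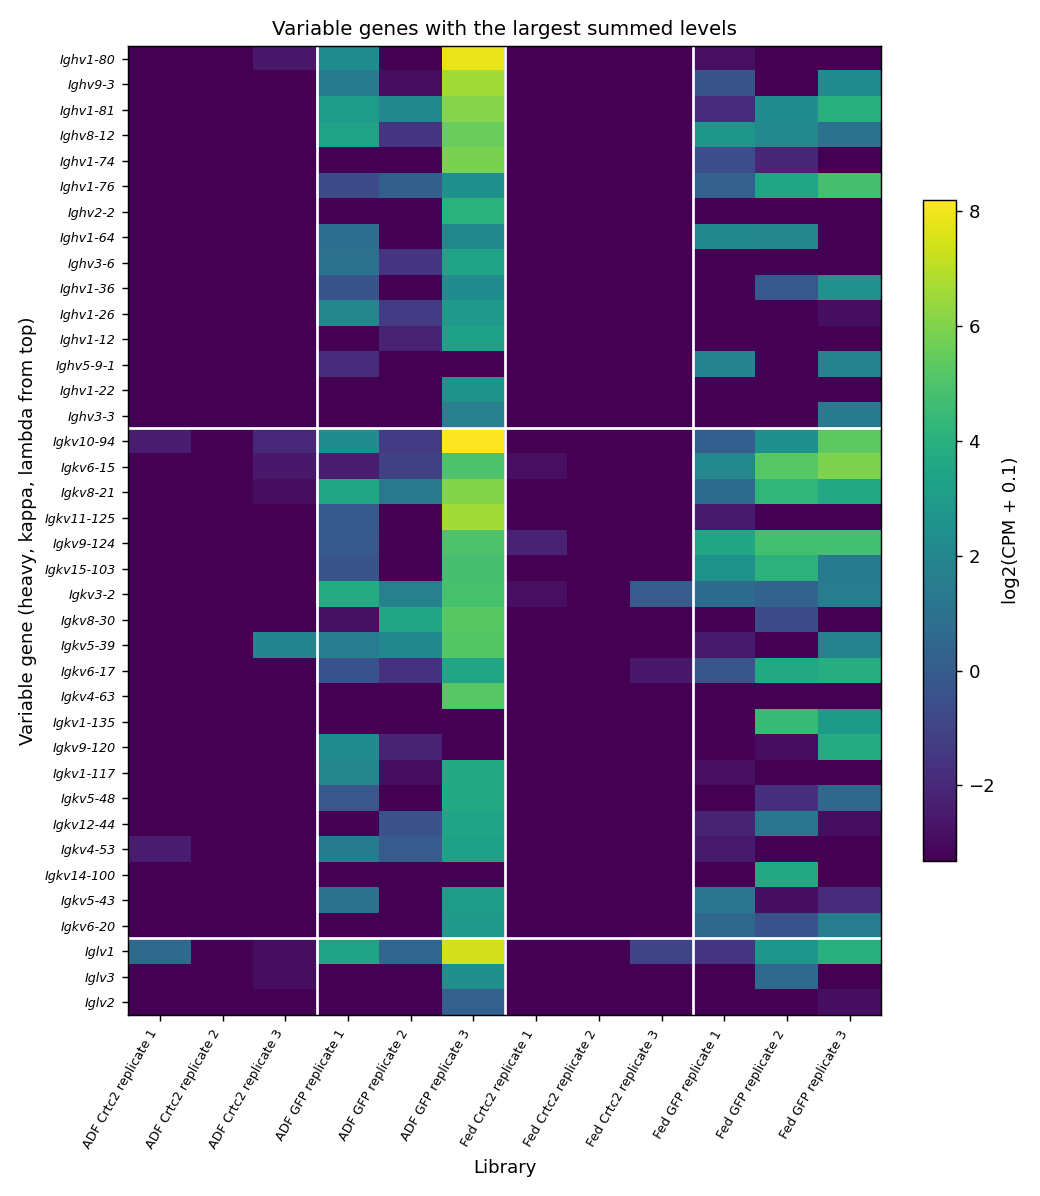
Heat map of log2(CPM + 0.1) of the 15 heavy, 20 kappa and 3 lambda variable genes with the largest summed levels (down the page) in the 12 libraries (across). The 6 Crtc2 columns are dark except for a few squares such as Igkv5-39 in ADF Crtc2 replicate 3, with 99 counts, and the bright genes differ between GFP columns, as with Ighv1-80 in ADF GFP replicate 3.

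The comparison of ADF with feeding asks whether fasting changed these transcripts. In GFP muscle edgeR called 0 of the 39 members between ADF and fed, beside 7.12% of all 16007 genes, with 4 members at an unadjusted p under 0.05. DESeq2 called 1 of 32, Igkv4-53, beside 10.8% of all genes. Igkc had a log2 fold change of -0.47 ± 1.07 (adjusted p = 0.901), Ighg2c of 0.73 ± 1.22 (0.845), Ighg1 of -1.998 ± 1.22 (0.436) and Igha of 0.42 ± 1.07 (0.908). Ighg3 was the 1 member with every ADF GFP library below every fed GFP library, beside 9.07% of genes: it was at 0.129, 0.986 and 17.8 CPM in ADF GFP libraries, against 25.4, 28.9 and 152 CPM in fed GFP libraries. The 6 members with every ADF GFP library above every fed GFP library, beside 11.6% of genes, were Igkv3-2, Igkv4-53, Ighv3-6, Ighv1-26, Igkv8-27 and Igkv3-4. The ADF GFP libraries were split, since replicates 1 and 2 lay below all fed GFP libraries in Igkc, Ighg2c and Jchain and replicate 3 above them. Without replicate 3 the log2 ratio of the summed constant genes was -2.64, against -0.10 with it, and edgeR called 4 members (Ighg3, Igkv6-15, Igkv9-124 and Jchain). Over the fits that each left out 1 library, 677 to 1230 of all genes were called in this comparison.

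In Crtc2 muscle edgeR called 0 of the 39 members between ADF and fed, beside 11% of all genes, with 3 members at an unadjusted p under 0.05. DESeq2 called 4 of 32: Igha, Igkv3-2 and Iglc2 lower and Igkv5-39 higher, beside 16.7% of all genes. Igkv5-39 had 0, 0 and 99 counts in ADF Crtc2 libraries, against 0 in all fed Crtc2 libraries, and Iglc2 had 0 in all ADF Crtc2 libraries, against 1, 0 and 8 counts in fed Crtc2 libraries, so both calls rest on few libraries. Igha came nearest among the constant genes, with a log2 fold change of -3.97 ± 1.33 (edgeR adjusted p = 0.0657) and every ADF Crtc2 library below every fed Crtc2 library, where 12.7% of genes lay so. It passed with library totals in place of TMM (-4.22, adjusted p = 0.0458), without ADF Crtc2 replicate 1 (-8.29, 0.0209) and without fed GFP replicate 1 (-3.98, 0.0110). Iglc1 was the 1 member with every ADF Crtc2 library above every fed Crtc2 library, beside 12.1% of genes. The interaction term, positive where the Crtc2 to GFP log2 ratio was higher under ADF than in fed muscle, was called in 0 of the 39 members and 0% of all genes by edgeR, with 3 members at an unadjusted p under 0.05. DESeq2 called it in 3 of 33 members (Igkv3-2, Igkv5-39 and Iglc2), beside 0.705% of all genes. It was -4.39 ± 1.696 for Igha (adjusted p = 0.570) and 0.57 ± 1.55 for Igkc (0.987).

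Markers of B cells were low in all groups, and 1 of the 15 tested passed under ADF by edgeR and 2 by DESeq2 (Cd79a and Cd79b). Among all genes under ADF, edgeR called 0.65% lower and DESeq2 called 556 of 15430 in either direction. Of 22 genes in the B cell list, 21 are in the table and 10 of these had 0 counts in all ADF Crtc2 libraries, 1 in all ADF GFP libraries, 4 in all fed Crtc2 libraries and 4 in all fed GFP libraries. Their summed level was 7.31 to 14.1 CPM in ADF Crtc2 libraries, against 30.8 to 86.8 CPM in ADF GFP libraries, and 21.2 to 42.3 CPM in fed Crtc2 libraries, against 29.8 to 93.0 CPM in fed GFP libraries. The sums separated the vectors under ADF and overlapped in fed muscle, where edgeR called 0 of 15, with 1 at an unadjusted p under 0.05 and 0 by DESeq2. Cd79b, a signalling chain of the B cell receptor, was the gene that passed by edgeR under ADF (adjusted p = 0.0483). It averaged 0 CPM in ADF Crtc2 muscle and 3.97 ± 5.20 CPM in ADF GFP muscle (SD, n = 3 each).

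In the list of plasma cell and antibody secretion genes edgeR called 0 of 22 tested members under ADF, with 7 at an unadjusted p under 0.05, and 0 in fed muscle, with 3. DESeq2 called 3 under ADF (Derl3, Pou2af1 and Slamf7) and 1 in fed muscle (Derl3), beside 556 and 64 of 15430 genes. Its summed level was 348 to 401 CPM in ADF Crtc2 libraries, against 336 to 638 CPM in ADF GFP libraries, and 378 to 413 CPM in fed Crtc2 libraries, against 508 to 654 CPM in fed GFP libraries. The sum includes genes that many cell types use for protein secretion, such as Xbp1, a factor of the unfolded protein response (90.3 ± 10.3, 93.2 ± 23.6, 61.0 ± 11.96 and 84.8 ± 17.2 CPM in ADF Crtc2, ADF GFP, fed Crtc2 and fed GFP muscle), and the chaperone Hsp90b1. Mzb1 and Derl3, narrower plasma cell genes, were scarcer than Xbp1. Levels of the other narrow genes in the list are not given here. Mzb1, a chaperone of antibody-secreting cells, averaged 0.832 ± 0.938 CPM in ADF Crtc2 muscle and 15.96 ± 21.1 CPM in ADF GFP muscle, and 1.15 ± 1.47 CPM in fed Crtc2 muscle and 13.2 ± 3.90 CPM in fed GFP muscle (adjusted p = 0.347 and 0.877). Derl3, an endoplasmic reticulum degradation gene, had 0 CPM in all Crtc2 libraries and 1.85 ± 3.21 CPM in ADF GFP and 2.34 ± 1.80 CPM in fed GFP muscle (SD, n = 3 each). The ADF GFP mean of Derl3 came from 1 library, so its DESeq2 call under ADF rests on that library.

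Receptors for antibodies were measured in 7 genes, of which edgeR called 2 lower in Crtc2 muscle under ADF and 0 in fed muscle, with 1 at an unadjusted p under 0.05 and 0 by DESeq2 there. Under ADF DESeq2 called 3 (Fcer1g, Fcgr2b and Fcgr3). Among all genes under ADF, edgeR called 0.65% lower and DESeq2 called 556 of 15430 in either direction. Fcer1g, the signalling chain of several Fc receptors, fell by 2.19 ± 0.42 on the log2 scale under ADF (adjusted p = 0.0135), to 4.83 ± 0.959 CPM in ADF Crtc2 muscle, against 22.0 ± 5.27 CPM in ADF GFP muscle. Fcgr2b, the inhibitory IgG receptor, fell by 2.67 ± 0.63 (adjusted p = 0.0480). Fcgrt, the neonatal Fc receptor that recycles IgG, averaged 65.0 ± 7.75 CPM in ADF Crtc2 muscle and 71.2 ± 15.1 CPM in ADF GFP muscle (adjusted p = 0.951). In the list of germinal centre and lymphoid stroma genes edgeR called 0 of 10 tested members in Crtc2 against GFP muscle under ADF, with 2 at an unadjusted p under 0.05, and 0 in fed muscle, with 1. DESeq2 called 1 (Mki67) and 0, and the list's 3 most abundant genes were Clu, Bcl6 and Ltbr. In the list of recombination and precursor B cell genes Cd93, which endothelial cells also express, was the 1 of 2 tested that passed, lower in ADF Crtc2 than in fed Crtc2 muscle (-1.36 ± 0.38, adjusted p = 0.0284).

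Markers of other immune and blood cells differed in part. The 17 T and NK cell markers summed to 6.76 to 8.81 CPM in ADF Crtc2 libraries, against 40.4 to 94.5 CPM in ADF GFP libraries, and to 11.7 to 119 CPM in fed Crtc2 libraries, against 69.9 to 177 CPM in fed GFP libraries. Under ADF edgeR called 1 of these 17 lower, Cd3g, with 10 at an unadjusted p under 0.05, beside 0.65% of all genes called lower. DESeq2 called 8 of the 17 under ADF, beside 556 of 15430 genes, and 0 in fed muscle. The fed ranges overlapped. The 17 macrophage markers summed to 466 to 657 CPM in ADF Crtc2 libraries, against 1232 to 2794 CPM in ADF GFP libraries, and to 515 to 1185 CPM in fed Crtc2 libraries, against 1121 to 1503 CPM in fed GFP libraries, with 6 of 17 lower under ADF by edgeR. Macrophage markers thus separated the vectors under ADF, and the ranges overlapped in fed muscle. DESeq2 called 12 of the 17 macrophage markers under ADF and 0 in fed muscle. The 7 erythroid markers summed to 69.9 to 176 CPM in ADF Crtc2 libraries, against 121 to 396 CPM in ADF GFP libraries, and to 71.1 to 214 CPM in fed Crtc2 libraries, against 82.0 to 155 CPM in fed GFP libraries, so that the erythroid ranges overlapped under both diets. The 8 neutrophil markers in the table summed to 0.782 to 6.79 CPM in ADF Crtc2 libraries, against 2.42 to 7.33 CPM in ADF GFP libraries, and to 3.37 to 22.5 CPM in fed Crtc2 libraries, against 6.27 to 25.8 CPM in fed GFP libraries, also with overlap. The part of any of these cells in the antibody transcripts was not tested.

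Across the 12 libraries, the genes outside the immunoglobulin loci whose CPM followed Igkc most closely were Ly6c2 (Spearman 0.930, Pearson 0.879), Itga4 (0.916, 0.874), C1qc (0.888, 0.870), Ciita (0.874, 0.776) and Emp3 (0.874, 0.757). These are descriptions over libraries that share the vector groups. Ly6c2, a surface antigen of monocytes and other leukocytes, was at 0.0432, 0.0790 and 0.0356 CPM in ADF Crtc2 libraries, against 12.5, 3.59 and 55.4 CPM in ADF GFP libraries, and at 0, 2.38 and 4.18 CPM in fed Crtc2 libraries, against 17.6, 20.1 and 34.3 CPM in fed GFP libraries. C1qc is a complement C1q chain made by macrophages, Ciita drives MHC class II genes, and Itga4 is an integrin chain of leukocytes.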

How the data were processed

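The authors deposited raw read counts per gene, whole numbers without normalization, for 12 libraries of tibialis anterior muscle; 0 columns belonged to no sample. Per the submitters' processing notes, the software was DESeq2 1.18.1, featureCounts (Subread 1.6.1), SAMtools 1.7 and HISAT2 2.0.5, with GRCm38 and mm10 as builds; the annotation, strand setting and treatment of reads matching several genes are not given in the sources used here, and the labels' protocols name an NEBNext Ultra II directional and a TruSeq Stranded mRNA kit without assigning them to libraries, so a preparation difference that followed the groups cannot be told apart from them. All 111 members were found in GENCODE M21, and 0 of the kept variable genes are pseudogenes there.

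Genes were fitted together with edgeR 4.0.16 in R 4.3.3 (TMM scaling, filterByExpr, robust quasi-likelihood fit of 4 group means over 12 libraries), with Benjamini-Hochberg adjustment over 16007 genes and a threshold of 0.05, in 5 comparisons; 39 members passed the filter on low counts, and the others are described by counts. Standard errors were taken as the size of the log2 fold change over the root of its F statistic. The smallest two-sided exact p for 3 against 3 libraries is 0.1. Levels are CPM, ± SD over 3 libraries; log CPM used a prior count of 2. A gene at 0 in a group was set to a floor of 3 counts per library, 0.0814 to 0.13 CPM. Among counts from 2 to 21, 68.9 to 74.7% were even numbers in each library, so a low count may stand for fewer fragments. Floors and intervals cover counting error only, with each count taken as independent, and the intervals may be too narrow.

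The members and lists were chosen with earlier results of these data known. Named genes are the constant genes and Jchain, the variable genes with the most counts overall and in each library, every member past the threshold, those next to the count minimum, marker genes past the threshold or most abundant, and the 5 genes most correlated with Igkc; other genes named in short lists were chosen after their values were seen. Alternatives were DESeq2, library totals, no filter, a replicate block and leaving out each library. The fitting code was tested on simulated data for fed Crtc2 against fed GFP. It recovered 36.6% of genes changed 4-fold and 66.7% of genes changed 16-fold, and called 6 unchanged genes among the 15241 genes run. No library duplicated another of its group.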

Additional observations from a re-analysis of the deposited data

How the results depend on the processing

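DESeq2 made more calls than edgeR. It gave an adjusted p to 32 members in each comparison of 2 groups, and to 33 in the interaction and over both diets. Among the members it called 13 in fed Crtc2 against fed GFP, 20 in ADF Crtc2 against ADF GFP, 1 in ADF GFP against fed GFP, 4 in ADF Crtc2 against fed Crtc2, 3 in the interaction and 25 over both diets, and among all genes 64, 556, 1635, 2524, 111 and 360. Without the filter 1 member was called in ADF GFP against fed GFP (Igkv1-135), and with library totals 1 in ADF Crtc2 against fed Crtc2 (Igha). The 4 ADF calls and the 9 calls over both diets were also made with DESeq2, library totals and no filter.

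Leaving out 1 library at a time gave 0 to 9 member calls in fed Crtc2 against fed GFP, 0 to 8 in ADF Crtc2 against ADF GFP (0 without ADF Crtc2 replicate 3), 0 to 4 in ADF GFP against fed GFP, 0 to 1 in ADF Crtc2 against fed Crtc2, 0 in the interaction and 5 to 14 over both diets. Among all genes the calls were 0 to 18, 25 to 164, 677 to 1230, 1129 to 1940, 0 to 3 and 42 to 148. Log2 ratios of the summed constant genes were -6.72 to -5.06 in fed Crtc2 against fed GFP, -6.22 to -3.15 in ADF Crtc2 against ADF GFP, -2.64 to 0.42 in ADF GFP against fed GFP and -0.74 to 0.93 in ADF Crtc2 against fed Crtc2. Those of the variable genes were -10.12 to -7.54, -7.95 to -4.43, -1.15 to 2.17 and 1.75 to 4.54. The sign of small diet differences turned: Igkc ranged from -2.92 to 0.054 in GFP muscle and from -0.47 to 0.85 in Crtc2 muscle (-0.16 with library totals), and Igha in GFP muscle from -0.14 to 1.12 (-0.035 with the replicate block). The cause was not tested. Library totals moved the median of all genes by -0.20 in ADF Crtc2 against ADF GFP and by -0.29 in ADF Crtc2 against fed Crtc2.

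Whether replicate numbers pair the samples was not settled. Of 18 same-numbered pairs 1 correlated above 0.1 (range -0.038 to 0.134), while 8 of 12 libraries matched best a library of their own number. With the number as a block 7 members were called in ADF Crtc2 against ADF GFP, 3 in ADF GFP against fed GFP and 14 over both diets, while Ighv8-12 under ADF (adjusted p = 0.0753) and Ighg2c over both diets (0.0877) were not called. Among all genes the block gave 106, 1088 and 83 calls in these comparisons, in the same order. The planned comparison of octamer motifs in variable gene promoters was not run, since no promoter sequence of a variable gene was used here. Counts in 1 library only were found for 36 members, and these have no replicate check.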

Other observations

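Joining and diversity segments lie outside the gene set and were also scarce in Crtc2 libraries. The 11 such segments with counts in the table held 17, 15 and 14 counts in ADF Crtc2 libraries, against 81, 78 and 2360 counts in ADF GFP libraries, and 1, 0 and 9 counts in fed Crtc2 libraries, against 220, 397 and 580 counts in fed GFP libraries. Their total was 56 counts over the 6 Crtc2 libraries and 3716 over the 6 GFP libraries. Ighj4, a heavy joining segment, had the most, with 16, 0 and 13 counts in ADF Crtc2 libraries, against 0, 26 and 702 counts in ADF GFP libraries, and 0 counts in all fed Crtc2 libraries, against 2, 38 and 131 counts in fed GFP libraries. Igkj2, a kappa joining segment, had 1, 0 and 1 counts in ADF Crtc2 libraries, against 5, 11 and 614 in ADF GFP libraries, and 0 in all fed Crtc2 libraries, against 58, 80 and 68 in fed GFP libraries.

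Lambda light chains held a small share beside kappa. Per kilobase, the summed lambda constant genes stood at 0.0539, 0.249 and 0.124 of Igkc in ADF Crtc2 libraries, against 0.0437, 0.0343 and 0.115 in ADF GFP libraries, and at 0.00617, 0.167 and 0.0690 in fed Crtc2 libraries, against 0.0237, 0.00795 and 0.0201 in fed GFP libraries. The vector groups overlapped in this ratio under both diets.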
